A study of Mus musculus with 6 samples.

Results

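Transcripts of the T cell receptor complex and of the receptors CD28 and ICOS were followed across CD4 T cells with and without the adaptor protein SAP. The 10 genes were grouped by function, with earlier results of these data known: the CD3 chain genes Cd3d, Cd3e, Cd3g and Cd247, the co-receptor gene Cd4, the costimulatory receptor genes Cd28 and Icos, and the signalling genes Trat1, Lat and Zap70. All 10 were measured, by 20 probe sets, among 18193 genes on the array. The cells were T cell receptor transgenic (OT-II, specific for an ovalbumin peptide on MHC class II) and were either wild-type (WT) or SAP-deficient, with 3 arrays of each genotype. Naive CD4 T cells (CD44 low, CD62L+, CD25-) from spleen and lymph nodes were sorted and then kept for 3.5 days with ovalbumin peptide, mitomycin C-treated splenocytes from which T cells had been removed, IL-21 at 50 ng/ml, IL-6 at 100 ng/ml and blocking antibodies to TGF-β (20 µg/ml), IL-4 (10 µg/ml), IL-12 and IFN-γ. This mixture was meant to produce cells like follicular helper T (Tfh) cells, and both genotypes received it. All cells thus shared 1 receptor transgene and 1 peptide, and RNA of surviving splenocytes could be part of every sample. The ages of the mice and the form of the SAP mutation were not given in the sources used here.

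The T cell receptor recognises a peptide on an MHC molecule but has almost no signalling tail of its own. It is carried by the CD3 chains, whose tails hold the tyrosine motifs that the kinase Lck phosphorylates while CD4 holds Lck near the receptor. The kinase ZAP-70 binds the phosphorylated motifs and in turn phosphorylates the adaptor LAT, on which the next signalling proteins gather. CD28 adds a second signal when it meets CD80 or CD86, ICOS does so when it meets its ligand on B cells, and ICOS is needed for Tfh cells. SAP, encoded by Sh2d1a, binds the tails of SLAM-family receptors and brings in the kinase Fyn.

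The labels and the arrays were checked first. Sh2d1a was at 9.50, 8.52 and 9.39 (log2) in the WT arrays and at 5.47, 4.10 and 4.92 in the SAP-deficient arrays, so the genotypes did not overlap. Its change was -4.31 ± 0.37 (SE), with an adjusted p of 0.0501 in limma fitted on genotype alone and 1.99e-07 with the matched pairs described next as a block. CD4 T cell markers were bright, with Cd4 at 9.44 to 9.87, while Cd8a was at 5.59 to 5.94, beside a median of 5.75 over the means of all probe sets, and Cd8b1 at 8.17 to 9.10. Among genes of other cells, the B cell gene Ighm was at 9.98 to 10.97 and Cd74, linked to MHC class II, at 9.65 to 10.18. The B cell gene Cd79a was dim, at 5.56 to 6.02. Of the NK cell markers, Klrd1 was at 8.01 to 9.35 and Ncr1 at 4.48 to 4.69. The arrays resembled each other in pairs across genotype, replicate 1 with replicate 1, 2 with 2 and 3 with 3, with correlations over all probe sets of 0.996 to 0.998 within pairs and 0.989 to 0.994 within a genotype (rounded). Xist was at 12.50 in both arrays of pair 1 and at 5.81 to 8.21 in the other arrays, and Eif2s3y, a gene of the Y chromosome, ran from 2.91 to 3.54 in pair 1 and from 9.76 to 9.98 elsewhere. These are called matched pairs below. The labels do not state a pairing, and nothing in them ties an array to a mouse or culture of its own. Every p-value here thus reflects the spread among these arrays alone. In the fit on genotype alone that spread includes the differences between pairs, which were large for Xist and Eif2s3y. The spread within pairs may be technical. In bulk RNA, fewer T cells and less RNA of a gene per T cell cannot be told apart.

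No gene of the receptor complex passed the test between genotypes. Of the 10 genes, 5 had a mean above and 5 a mean below that of WT in SAP-deficient arrays, beside 53.3% and 46.7% of all genes, with a median change of -0.004 (log2) beside 0.01 over all genes. Limma, fitted over all probe sets with genotype alone, called 0 of the 10 at an adjusted p under 0.05, and 0 of them had an unadjusted p under 0.05. The background was low: this fit called 0% of 18193 genes, and 1.31% had an unadjusted p under 0.05. Sh2d1a itself, with the change of -4.31 given above, was not called by it. For all 10 genes the values of the genotypes overlapped, as they did for most genes on the array, of which 5.32% had groups that did not overlap. The 95% intervals set how large a difference could have gone unseen: all 10 lay within 1 log2 unit of 0, that is within a 2-fold change, and 7 lay within 0.5.

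**Figure D1:**
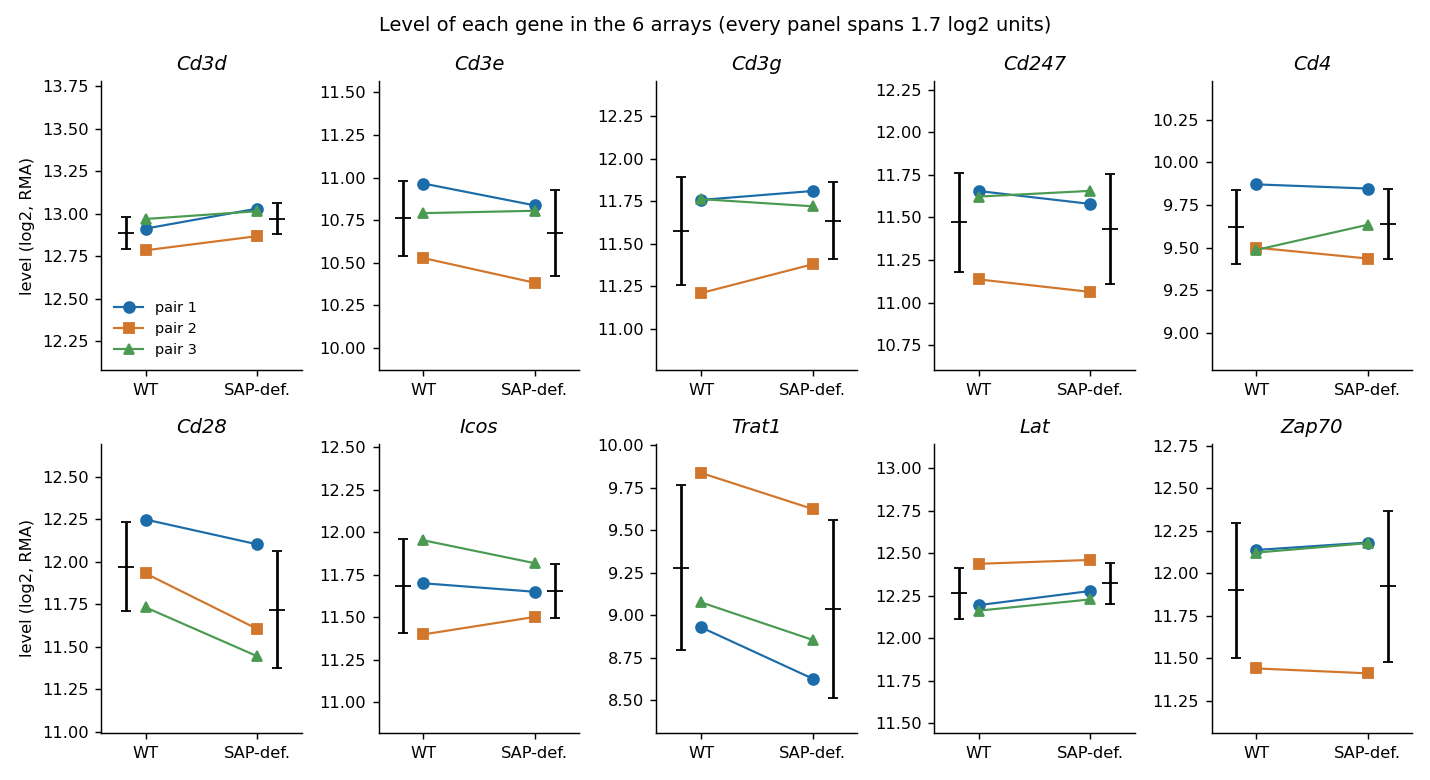
Level (log2, RMA) of each of the 10 genes in WT and SAP-deficient (SAP-def.) arrays, with lines joining the 2 arrays of a matched pair and black bars giving the mean ± SD of 3 arrays. The lines for Cd28 and Trat1 slope down in all 3 pairs and those for Cd3d and Lat slope up slightly, while for most genes the pairs stand further apart than the genotypes.

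As a group, the 4 CD3 chains were nearly level between genotypes. Averaged over the 4 genes, SAP-deficient minus WT was -0.01, 0.01 and 0.01 in matched pairs 1 to 3. Single chains departed from this in both directions. The promoter-proximal sequences of these chains are shown because 3 of the genes lie side by side on chromosome 9, in the order Cd3g, Cd3d, Cd3e in the RefSeq table (GRCm38.p6), and Cd3g and Cd3d are read in opposite directions from neighbouring starts. The 150 bases before the annotated start are given 5′ to 3′ on the gene's own strand, with capitals marking GGAA or its reverse complement TTCC. These are the core letters of sites for ETS factors, a family that includes regulators of T cell genes.
Cd3g, chr9:44980432-44980581, minus strand: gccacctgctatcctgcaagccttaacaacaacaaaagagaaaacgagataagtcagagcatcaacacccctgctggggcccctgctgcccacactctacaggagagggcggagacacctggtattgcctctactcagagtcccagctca
Cd3d, chr9:44981636-44981785, plus strand: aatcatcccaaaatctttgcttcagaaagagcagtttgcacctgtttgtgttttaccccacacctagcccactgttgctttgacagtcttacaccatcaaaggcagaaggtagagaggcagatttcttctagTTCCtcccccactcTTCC
Cd3e, chr9:45009612-45009761, minus strand: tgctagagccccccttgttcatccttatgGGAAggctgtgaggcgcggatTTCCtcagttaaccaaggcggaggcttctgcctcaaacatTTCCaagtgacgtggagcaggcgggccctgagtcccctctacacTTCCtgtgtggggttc
Cd247, chr1:165788531-165788680, plus strand: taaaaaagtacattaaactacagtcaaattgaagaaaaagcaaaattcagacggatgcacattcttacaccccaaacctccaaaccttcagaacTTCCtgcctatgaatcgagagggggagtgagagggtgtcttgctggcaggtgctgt

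The 4 windows differ in these letters: the GGAA core, on either strand, occurs 4 times before Cd3e, 2 times before Cd3d, 1 time before Cd247 and 0 times before Cd3g. It is a frequent word, present in 80.8% of the 32851 promoter windows of the same length in the table. The E-box CANNTG, searched on both strands, occurs in all 4 windows and in 47.7% of all windows. None of the 4 holds the RUNX core TGTGGT or the TATA box TATAAA, found on either strand in 8.40% and 7.57% of windows. The AP-1 site TGANTCA, present in 4.24% of windows, has no match here. These matches are descriptions of letters only.

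Cd3d, whose product pairs with CD3 epsilon, was at 12.91, 12.78 and 12.97 in the WT arrays and at 13.03, 12.87 and 13.01 in the SAP-deficient arrays. The SAP-deficient array was the higher one in each pair, by 0.12, 0.08 and 0.05, but the genotypes overlapped. Its change was 0.08 ± 0.07 (SE), with a 95% interval of -0.07 to 0.24. Across the 6 arrays it kept within 0.25 log2 units, the narrowest range of the 10 genes.

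Cd3e, encoding the chain that pairs with both CD3 delta and CD3 gamma, was at 10.96, 10.53 and 10.79 in WT and at 10.84, 10.38 and 10.80 in SAP-deficient arrays. It was lower in pairs 1 and 2 and nearly equal in pair 3, and the change was -0.09 ± 0.16 (95% interval -0.45 to 0.27). Cd3g, encoding the partner of CD3 epsilon on the other side of the receptor, was at 11.76, 11.21 and 11.76 in WT and at 11.81, 11.38 and 11.72 in SAP-deficient arrays. Its change was 0.06 ± 0.17 (-0.33 to 0.45), and the sign differed between pairs. Leaving out WT replicate 2 turned it to -0.12.

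Cd247 encodes the zeta chain, the subunit with the most signalling motifs. Its brightest probe set was at 11.66, 11.14 and 11.62 in WT and at 11.58, 11.06 and 11.66 in SAP-deficient arrays, a change of -0.04 ± 0.19 (-0.47 to 0.40). In both genotypes replicate 2 was the low array. A second bright probe set, at a mean of 10.89, changed by -0.02 ± 0.26, and another, at 7.95, by -0.09 ± 0.31. The fourth was dim, at a mean of 5.02 against the median of 5.75, and stood apart from the others by a difference of -0.63 in pair 3, where the other 3 were between -0.21 and 0.03.

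Of 12 listed names of receptor chain genes, 2 were measured by a probe set of their own, Tcra at a mean of 3.18 with a change of -0.06 and Ptcra at 4.64 with -0.01, both under the median of all probe sets. The receptor chains themselves were therefore followed through probe sets that the platform annotation assigns to variable segments of the receptor, chosen here after their values were seen. The brightest probe set annotated to Trav9d-3, an alpha chain segment, was at 14.20, 14.18 and 14.20 in WT and at 14.16, 14.19 and 14.12 in SAP-deficient arrays. The brightest one annotated to Trbv1, a beta chain segment, was at 12.90, 12.95 and 12.92 in WT and at 12.92, 12.96 and 12.93 in SAP-deficient arrays. Their changes were -0.03 ± 0.03 and 0.01 ± 0.04, and over the 6 arrays they ranged over 0.08 and 0.06 log2 units. Dimmer probe sets annotated to the same segments ranged more widely. Those of Trav9d-3 ranged over 0.35 to 1.23, with changes from -0.09 to 0.05. The dimmer Trbv1 probe set ranged over 0.45 and changed by -0.13 ± 0.14. Which receptor sequence these probes bind is not known here. The brightest Trav9d-3 probe set lies at the top of the array's range, where differences can be compressed.

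**Figure D2:**
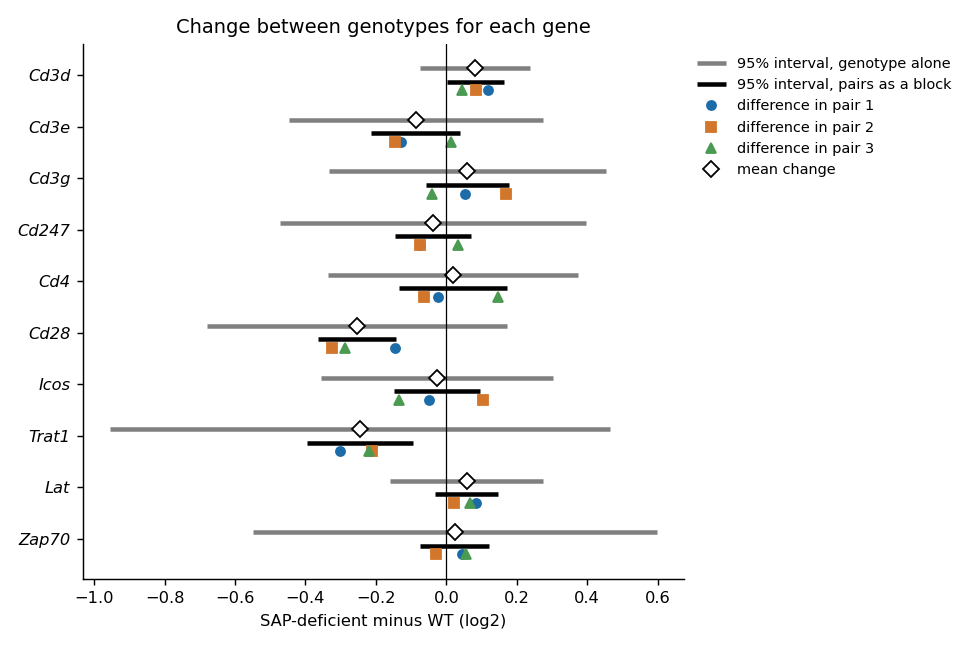
Change of each gene between genotypes (SAP-deficient minus WT, log2). Diamonds are means over 3 arrays a genotype, grey bars the 95% interval of the fit on genotype alone, black bars that of the fit with matched pairs as a block, and coloured marks the difference within each pair. All grey bars cross 0, the black bars of Cd28 and Trat1 lie wholly below it, and that of Cd3d lies just above it, from 0.0015 to 0.16.

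Cd4 encodes the co-receptor that binds MHC class II. It was at 9.87, 9.50 and 9.49 in WT and at 9.85, 9.44 and 9.63 in SAP-deficient arrays, with pair 1 high in both genotypes. The change was 0.02 ± 0.15 (-0.33 to 0.37). A dimmer probe set of the gene changed by -0.12 ± 0.15, and both probe sets had mixed signs over the pairs, negative in pairs 1 and 2 and positive in pair 3.

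Cd28 had the most negative change of the 10 genes. Its brighter probe set was at 12.25, 11.93 and 11.73 in WT and at 12.10, 11.60 and 11.44 in SAP-deficient arrays. Within each genotype the level was highest in replicate 1 and lowest in replicate 3, so the genotypes overlapped, yet in each pair the SAP-deficient array was the lower one, by -0.15, -0.33 and -0.29. The change was -0.25 ± 0.18, or 0.839 times the WT level, with a 95% interval of -0.68 to 0.17 and an adjusted p of 1.00 (limma). Single arrays weighed on its size: the change was -0.12 when the third SAP-deficient array was left out, -0.11 without WT replicate 1 and -0.45 without SAP-deficient replicate 1, where the unadjusted p was 0.0225 and the adjusted p 1.00. The second probe set gave the same order: it was at 12.08, 11.66 and 11.44 in WT and at 11.94, 11.42 and 11.28 in SAP-deficient arrays, with differences of -0.14, -0.24 and -0.16 within pairs. Its change was -0.18 ± 0.20.

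With the matched pairs as a block, the spread left over was much smaller. The standard errors of the 10 genes fell to between 0.04 and 0.07, from between 0.07 and 0.31 without the block. Cd28 then had a 95% interval of -0.36 to -0.14, an unadjusted p of 5.42e-04 and an adjusted p over all genes of 0.379 (limma), so it was not called. For its second probe set the unadjusted p was 0.00331 and the adjusted p over probe sets 0.807. Leaving out 1 pair at a time from this fit gave changes of -0.31, -0.22 and -0.24 without pairs 1, 2 and 3, with adjusted p-values of 0.530, 0.993 and 0.157. The call rule with the block passed 0.0055% of all genes, which is 1 gene, Sh2d1a.

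Trat1 encodes an adaptor, also called TRIM, that sits in the membrane with the receptor and the CD3 chains. It was at 8.93, 9.84 and 9.08 in WT and at 8.63, 9.62 and 8.85 in SAP-deficient arrays. Replicate 2 was the high array of each genotype, and within the pairs the SAP-deficient arrays were lower by -0.30, -0.21 and -0.22. The change was -0.24 ± 0.31 (-0.95 to 0.47), the widest interval of the 10 genes. Without WT replicate 2 it was 0.03 and without SAP-deficient replicate 2 it was -0.54, since either removal leaves 1 array of the high pair alone.

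With pairs as a block Trat1 had a 95% interval of -0.40 to -0.09, an unadjusted p of 0.00503 and an adjusted p of 0.697 (limma). Its second, dimmer probe set was also highest in replicate 2, at 7.54 and 7.40 in WT and SAP-deficient arrays. It did not keep the sign in every pair, with 0.05, -0.13 and -0.29. The change of that probe set was -0.12 ± 0.29.

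With the block, 2 of the 10 genes, Cd28 and Trat1, were lower at an unadjusted p under 0.05, beside 2.61% of all genes, and 1, Cd3d (unadjusted p = 0.0467, adjusted p = 0.814), was higher, beside 3.49%. Without a block the same 3 genes had unadjusted p-values of 0.208, 0.450 and 0.260. By sign alone 2 genes were lower in all 3 pairs, beside 13.1% of all genes, and 2, Cd3d and Lat, were higher in all 3, beside 15.6%. The genes were chosen when differences of Cd28 and Trat1 within these pairs were already known, so these counts are no independent support for them.

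Markers of other cells and of division differed within the pairs as well. Over B cell markers the mean difference was -0.16, -0.05 and -0.35 in pairs 1 to 3, over MHC class II genes -0.05, -0.06 and -0.47, and over cell cycle genes -0.18, -0.07 and 0.57. Cd28 differed by -0.15, -0.33 and -0.29 and Trat1 by -0.30, -0.21 and -0.22 in the same pairs. The part of other cells and of division in these differences was not tested. Summed over each list, B cell marker levels ran from 10.79 to 11.49 in WT and from 10.64 to 11.34 in SAP-deficient arrays, and MHC class II levels from 11.54 to 11.86 and from 11.37 to 11.83 (log2 of the sum). The B cell sum leaned on the brightest marker, Ighm, at 9.98 to 10.97 in WT and 9.99 to 10.87 in SAP-deficient arrays. Of the 13 measured B cell markers 5, and of the 9 MHC class II genes 2, had means under the median of all probe sets.

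**Figure D3:**
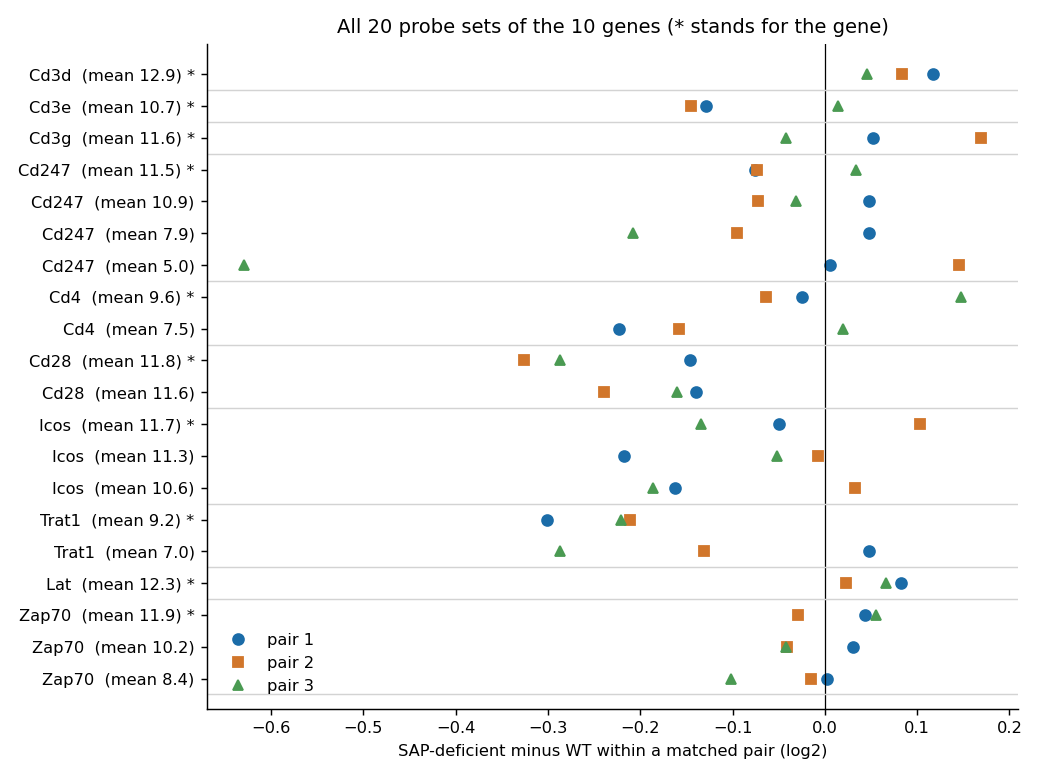
Difference within each matched pair (SAP-deficient minus WT, log2) for all 20 probe sets of the 10 genes, with the mean level of the probe set in brackets and a star at the one that stands for its gene. Both Cd28 probe sets lie left of 0 in all 3 pairs, whereas the dimmer Trat1 probe set lies right of 0 in pair 1 and the dimmest Cd247 probe set lies far left in pair 3 alone.

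Icos encodes the costimulatory receptor that binds ICOSL. Its brightest probe set was at 11.70, 11.40 and 11.95 in WT and at 11.65, 11.50 and 11.82 in SAP-deficient arrays, a change of -0.03 ± 0.14 (95% interval -0.36 to 0.30). The order of the arrays was not that of Cd28, with replicate 3 the high one for Icos and the low one for Cd28 in both genotypes. The 2 other Icos probe sets changed by -0.09 ± 0.18 and -0.11 ± 0.21, and 1 of the 3 was lower in all pairs. In the fit with the block the 95% interval was -0.15 to 0.09 for the brightest probe set and -0.22 to 0.03 and -0.24 to 0.03 for the others. The difference between the changes of Icos and Cd28 was not tested.

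Cd28 and Icos have Ctla4 between them on chromosome 1 in the RefSeq table. Ctla4 encodes the inhibitory receptor for the ligands of CD28, and it was at 12.15, 10.14 and 11.96 in WT and at 12.05, 10.02 and 11.61 in SAP-deficient arrays. Replicate 2 was the low array of both genotypes by far, and the SAP-deficient array was lower in each pair, by -0.09, -0.13 and -0.35. Its change was -0.19 ± 0.63, with an adjusted p of 1.00 without the block and 0.722 with it (limma). The 3 neighbours thus had different patterns over the arrays.

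Lat encodes the membrane scaffold that ZAP-70 phosphorylates. It was at 12.19, 12.44 and 12.16 in WT and at 12.28, 12.46 and 12.23 in SAP-deficient arrays. It was slightly higher in each SAP-deficient array of a pair, by 0.08, 0.02 and 0.07, and the change was 0.06 ± 0.09 (-0.16 to 0.27). Zap70 was at 12.14, 11.44 and 12.12 in WT and at 12.18, 11.41 and 12.18 in SAP-deficient arrays. Its change was 0.02 ± 0.25 (-0.55 to 0.60), and its 2 other probe sets were at -0.02 ± 0.19 and -0.04 ± 0.15. For the brightest Zap70 probe set the difference between genotypes in any pair, at most 0.06, was far smaller than that between replicate 2 and the other replicates of a genotype, while the dimmest one differed by -0.10 in pair 3.

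For each of these genes, more of the variance lay between pairs than between genotypes. Between 74.0% and 99.6% of each gene's variance over the 6 arrays lay between matched pairs, with a median of 92.5%, beside 66.9% for the median of all genes. All 10 had over 50% of their variance between pairs, as did 66.2% of all genes. Genotype held at most 23.1%, in Cd3d, and 20.5% in Cd28. These are shares of the sum of squares, of which 3 pairs take more on average than 2 genotypes even where arrays are unrelated. The pairs were matched on the odd-numbered probe sets of these same arrays, which may include some of these genes, so the shares are a description.

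**Figure D4:**
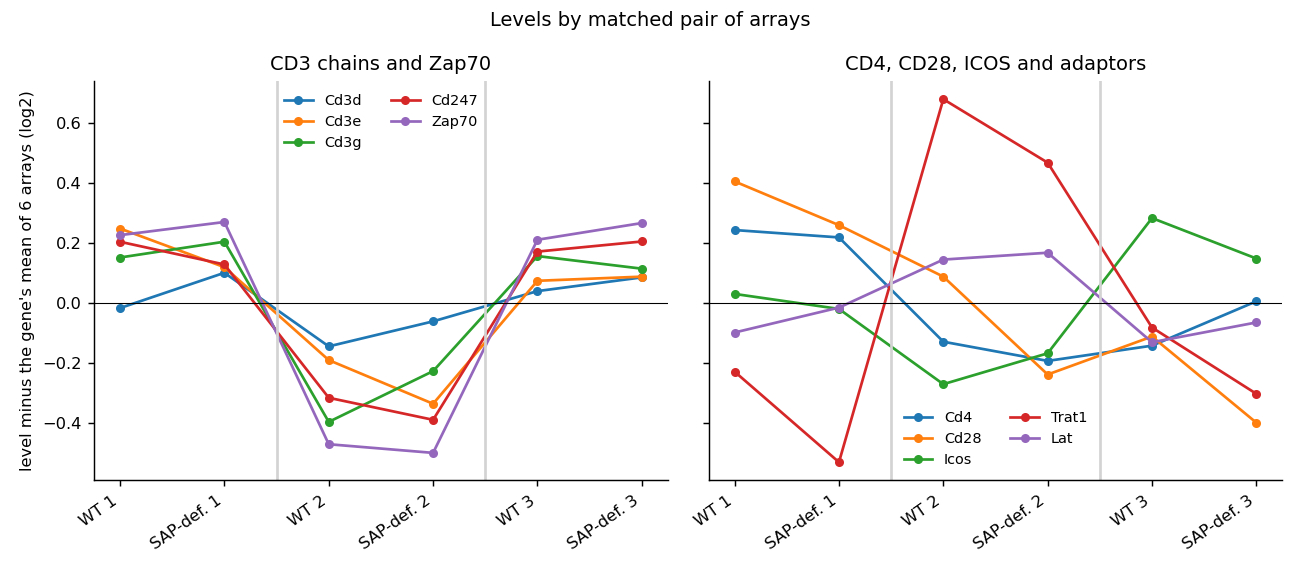
Level of each gene minus its mean over the 6 arrays (log2), with the arrays ordered by matched pair. On the left the CD3 chains and Zap70 are low in both arrays of pair 2, and on the right Trat1 and Lat are high there, Cd28 and Cd4 are highest in pair 1 and Icos is highest in pair 3.

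Across the pairs the genes fell into different orders. The mean of pair 2 was the lowest of the 3 for 7 genes, the 4 CD3 chains, Zap70, Cd4 and Icos, beside 39.6% of all genes. It was the highest for Trat1 and Lat. The pair means of Zap70 were 12.16, 11.43 and 12.15, those of Cd247 11.62, 11.10 and 11.64, those of Cd3g 11.78, 11.29 and 11.74, and those of Cd3e 10.90, 10.45 and 10.80. Pairs 1 and 3 were close for these 4 genes. Trat1 ran the other way, at 8.78, 9.73 and 8.96, while Cd28 was at 12.17, 11.77 and 11.59 in pairs 1, 2 and 3. In the same pairs the means of Xist were 12.50, 8.20 and 6.04 and those of Eif2s3y 3.22, 9.97 and 9.78. How these 2 genes relate to the orders above was not tested.

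Trat1 is shown with its upstream sequence because it was among the genes lower in every pair and had the widest range over the arrays. The 150 bases before its annotated start hold the GGAA core 2 times and, unlike the CD3 windows, the TATA box TATAAA and the RUNX core TGTGGT 1 time each on either strand, and no E-box. The window of Lat, the other gene highest in pair 2, holds the GGAA core 3 times, 1 E-box and, like the CD3 windows, no RUNX core or TATA box. Zap70, lowest in pair 2 like the CD3 chains, has several annotated starts, whose windows hold the GGAA core 5, 4 and 0 times. The window with 4 also holds the RUNX core 1 time, and the TATA box is absent from each. Capitals again mark GGAA or TTCC, and the build is GRCm38.p6.
Trat1, chr16:48772063-48772212, minus strand: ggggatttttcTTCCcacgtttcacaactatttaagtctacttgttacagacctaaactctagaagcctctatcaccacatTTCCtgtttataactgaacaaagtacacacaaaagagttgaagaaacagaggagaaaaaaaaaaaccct

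For the 3 genes with the widest range over the arrays, other genes with a like course were sought among 10924 genes above the median level. Over the 6 arrays, which are 3 pairs and not independent points, Zap70 was most like the RNA helicase gene Ddx21, the ubiquitin-conjugating enzyme gene Cdc34 and Map9, each with a Pearson correlation above 0.998. Trat1 was most like the splicing factor gene Hnrnph1 (0.999), the ubiquitin ligase gene Rnf213 (0.990) and Prxl2a (0.987). Cd28 was most like Rhobtb1 (0.982), Polr2m (0.973) and the farnesyltransferase gene Fntb (0.972). Of these, Map9, Prxl2a and Rhobtb1 moved by 1.17, 1.21 and 1.01 log2 units over the arrays and Polr2m by 0.10. These likenesses are a description.

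The rest of the receptor pathway likewise held no called gene. The counts of higher and lower genes in each list stand beside 53.3% higher and 46.7% lower over all genes. Of 8 co-receptors and surface proteins linked to the receptor, 4 were higher and 4 lower, with a median of 0.01. Cd2, an adhesion receptor of T cells, was at 0.04 ± 0.14, Cd5, which dampens receptor signals, at 0.02 ± 0.11 and Cd8b1 at 0.11 ± 0.26. Ptprc, encoding the phosphatase CD45, was at -0.05 ± 0.05. At an unadjusted p under 0.05 this group had 0 genes in either direction, with the block as well as without it.

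Of 10 measured kinases and phosphatases near the receptor, 8 were higher and 2 lower, with a median of 0.05. At an unadjusted p under 0.05 there were 0 without the block, and 1 higher (Txk) and 2 lower (Syk and Ptpn22) with it. Over all genes, 3.49% were higher and 2.61% lower by that measure with the block. Fyn, the kinase that SAP recruits, was at 0.002 ± 0.11. The largest change belonged to Txk, a kinase of the Tec family, at 7.31, 6.76 and 7.02 in WT and 7.65, 7.01 and 7.47 in SAP-deficient arrays. It was higher in each pair, by 0.34, 0.25 and 0.45, and the change was 0.35 ± 0.21, with an adjusted p of 1.00, or 0.669 with the block (limma). Lower in all pairs were Syk, the relative of ZAP-70 used in B cells, at -0.26 ± 0.17, and Ptpn22, a phosphatase that restrains receptor signals, at -0.15 ± 0.31. Syk is also a gene of the splenocytes, whose B cell markers differed by -0.16, -0.05 and -0.35 in the 3 pairs on average, and the part of those cells in its difference was not tested.

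Of 21 adaptors and scaffolds 15 were higher and 6 lower, with a median of 0.04. Skap1, an adaptor that links the receptor to integrins, was the only gene of the 6 receptor pathway lists with an unadjusted p under 0.05 in the fit on genotype alone. Over all genes this share was 1.31%. Skap1 was at 10.06, 9.94 and 10.00 in WT and at 10.23, 10.26 and 10.24 in SAP-deficient arrays, so every SAP-deficient array lay above every WT array. Groups did not overlap in 5.32% of all genes. In these lists Rasgrp1 also lay wholly above WT and Icosl wholly below it. The change of Skap1 was 0.25 ± 0.09 with an unadjusted p of 0.0248 and an adjusted p of 1.00 (limma), and with the block the adjusted p was 0.640. Grap2, encoding the adaptor GADS that joins LAT to SLP-76, had the largest change, at 0.28 ± 0.31, and was higher by 0.37, 0.24 and 0.24 within pairs. Lcp2, which encodes SLP-76, was at 0.003 ± 0.06. With the block 3 genes of this list, Skap1, Grap2 and Grap, were higher at an unadjusted p under 0.05 and 0 were lower. The shares over all genes were 3.49% and 2.61%.

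Of 26 effector enzymes and exchange factors 15 were higher and 11 lower, with a median of 0.01. At an unadjusted p under 0.05 there were 0 without the block, and 3 higher (Nfatc2, Plcg1 and Ppp3ca) and 1 lower (Cblb) with it. With the block these shares over all genes were 3.49% and 2.61%. The transcription factor gene Nfatc2 changed most, at 0.22 ± 0.28, with 0.20, 0.09 and 0.38 within pairs. Of 19 measured genes of the CD28 family, its ligands and PI3K, 12 were higher and 7 lower, with a median of 0.004. With the block 3 of them, Ctla4, Cd86 and Icosl, were lower at an unadjusted p under 0.05, beside 2.61% of all genes. The ligand gene Cd86 changed most, at -0.44 ± 0.39, and most of this lay in pair 3, where it was at 6.87 in WT and 5.71 in SAP-deficient cells, the pair in which MHC class II genes differed by -0.47. Icosl, the ligand gene of ICOS, was at -0.30 ± 0.15, with -0.60, -0.21 and -0.08 within pairs. Both ligands are typical of antigen-presenting cells, and the part of those cells in their values was not tested.

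**Figure D5:**
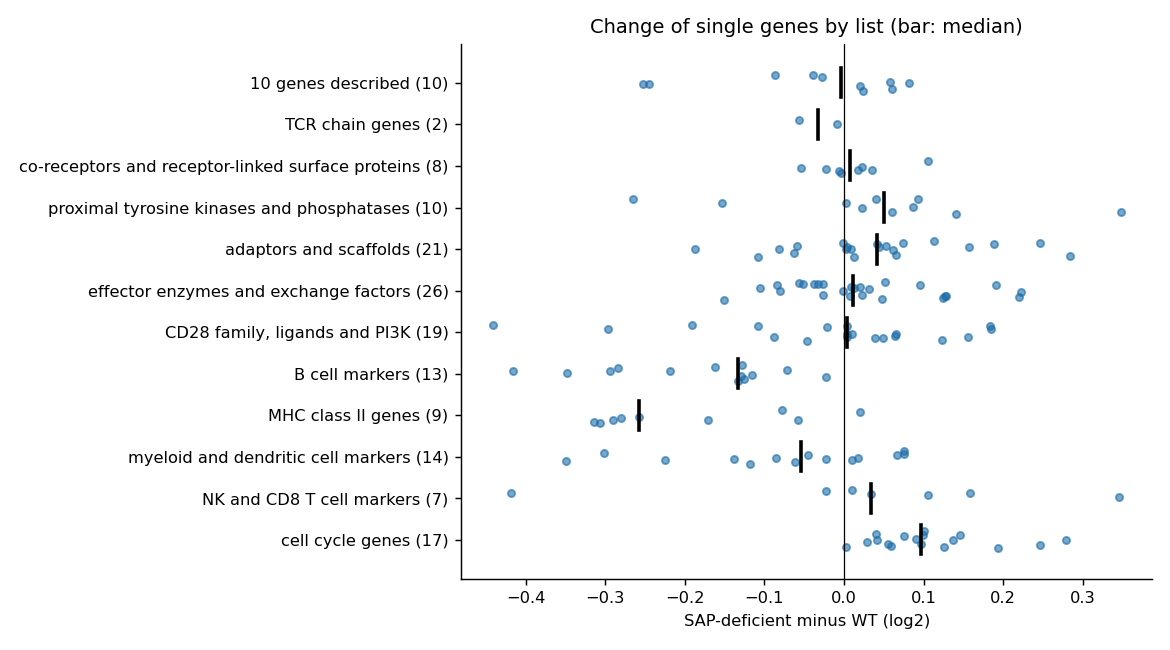
Change of single genes (SAP-deficient minus WT, log2) in the 10 genes described and in 11 lists of the receptor pathway, other cell types and the cell cycle, with the number of genes in brackets and a bar at each median. The medians of the receptor pathway lists lie between -0.03 and 0.05, those of MHC class II and B cell genes at -0.26 and -0.13, and that of cell cycle genes at 0.10.

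The lists of other cells and of the cell cycle held no called gene either. All 13 measured B cell markers were lower, with a median of -0.13, and 8 of 9 MHC class II genes were lower, with a median of -0.26. Over all genes, 46.7% were lower and 53.3% higher. The MHC class II median rested largely on pair 3: it was -0.06 without that pair, -0.07 without its SAP-deficient array and -0.13 without its WT array, and it was -0.15 without WT replicate 1. The B cell median was -0.20 without pair 2, -0.25 without WT replicate 2 and -0.27 without SAP-deficient replicate 1. Ebf1, a B cell transcription factor gene, changed most among the former, at -0.42 ± 0.25, and H2-Oa among the latter, at -0.31 ± 0.23. Of 14 myeloid and dendritic cell markers 9 were lower, with Ly86 the furthest, at -0.35 ± 0.36. Of 7 NK and CD8 T cell markers 2 were lower, with the activating receptor gene Klrk1 at -0.42 ± 0.24. All 17 cell cycle genes were higher on average, with the spindle checkpoint gene Bub1b at 0.28 ± 0.22. In pairs 1 and 2, however, the list's mean was -0.18 and -0.07, and the median turned from 0.10 to -0.10 without pair 3. WT replicate 3 was the low array, with a mean level over the list of 9.39 against 9.80 to 9.99 in the other arrays. In these 5 lists 0 genes were called with or without the block, and 0 had an unadjusted p under 0.05 without it. With the block, 2 B cell markers (Ebf1 and Cd72), 2 MHC class II genes (H2-Aa and H2-Eb1) and Klrk1 were lower at an unadjusted p under 0.05. Eomes was higher by the same measure, beside 2.61% of all genes lower and 3.49% higher. The smallest adjusted p of these 6 genes was 0.669 (limma), for Klrk1.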

How the data were processed

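The authors deposited log2 expression values of 45101 probe sets, 1 column per array. Per the submitters' processing notes they used Affymetrix Expression Console and RMA, which corrects background, equalises the arrays' distributions and summarises probes per probe set. Their versions were not given in the sources used here. Such values can understate differences of dim probe sets and hide changes in total RNA per cell. No read depth applies, and the 3 arrays per genotype limit the precision. Per the labels' protocols, 500 ng of RNA was labelled per array.

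Here 64 control probe sets were dropped. The platform annotation gives 1 gene for 34945 of 45037 probe sets, several for 932 and none for 9160, and symbols were updated through a RefSeq table (34741 matched). The highest-mean single-gene probe set stands for a gene. Limma (version 3.58.1, R version 4.3.3) was fitted to all probe sets on genotype with lmFit and eBayes with an intensity trend, and p-values were adjusted by Benjamini-Hochberg over 18193 genes, or over probe sets where stated. The fits with and without the block were also run on simulated arrays with known changes, and that outcome is not given or relied on here. The genes and lists were chosen with earlier results of these data known, and named list genes are those with an unadjusted p under 0.05 or the largest change, plus some chosen after their values were seen.

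Replicate numbers follow the order of deposit. Pairs of arrays were matched by correlation on odd-numbered probe sets, and all 3 matches fell on equal numbers. On even-numbered ones the deviations from genotype means correlated at 0.541, 0.733 and 0.596 within pairs and at most at -0.108 otherwise. Deviations from a mean of 3 sum to 0, which pushes the latter below 0. The fit with pairs as a block is an alternative. Protein sequences and upstream sequences of Cd4, Cd28 and Icos were not used here.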

Additional observations from a re-analysis of the deposited data

How the results depend on the processing

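With 19 other ways of processing or fitting, 0 of the 10 genes were called, and adjusted p-values ran from 0.157 to 1.00. Relative to the mean of the 4 CD3 chains, an alternative chosen after the values were seen, Cd28 was at -0.26 ± 0.22 (unadjusted p 0.248) and Trat1 at -0.25 ± 0.35 (0.489); that mean differed by at most 0.01 within pairs, so it could alter little. Over all genes the fit on genotype alone called 0. It called 1 with robust variance, with the matched pairs as a replicate block and without probe sets ending in _x_at or _s_at. The block called 3 genes without pair 1, 1 without pair 2 and 36 without pair 3, and the fit on genotype alone called 1 without WT replicate 2 and 0 without any other single array.

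Cd28 and Cd3d kept their direction in all 19. Of 190 values, 24 changed sign, 17 of them without 1 array, which unbalances the pairs. Without 1 array the changes ran from 0.03 to 0.13 for Cd3d, -0.20 to 0.060 for Cd3e, -0.12 to 0.19 for Cd3g, -0.21 to 0.15 for Cd247, -0.084 to 0.15 for Cd4, -0.45 to -0.11 for Cd28, -0.17 to 0.11 for Icos, -0.54 to 0.033 for Trat1, -0.012 to 0.14 for Lat and -0.21 to 0.28 for Zap70. Cd4 was at -0.044 in the block without pair 3, at -0.012 after a second quantile normalization and at -0.050 as the mean of its probe sets, and Zap70 at -0.011 by that mean. Icos was at 0.026 in the block without pair 3 and at 0.029 with array weights, and Cd247 at 0.017 with array weights. The cause was not tested, and each of these values lay within 1 SE of 0. Of 207 list medians under alternatives, 30 moved by more than their spread between pairs.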

Other observations

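Probe sets annotated to gamma chain segments of the T cell receptor were chosen after their values were seen. None was called by limma, and 3 of the 4 had a lower mean in SAP-deficient arrays. A probe set annotated to Trgv4 was at 5.88, 5.20 and 5.33 (log2) in WT and at 5.03, 4.90 and 5.08 in SAP-deficient arrays. The genotypes did not overlap there, as in 5.32% of all genes, and the change was -0.47 ± 0.18 (SE). Within matched pairs this probe set differed by -0.86, -0.30 and -0.25, so pair 1 weighed most. Another one annotated to Trgv4 changed by -0.43 ± 0.19 and one annotated to Trgv1 by -0.38 ± 0.19, most of it in replicate 1, where Trgv1 was at 6.55 in WT and 5.72 in SAP-deficient cells. One more Trgv4 probe set, at a mean of 2.98, changed by 0.11 ± 0.11. These probe sets can share sequence between segments, and the first 3 have means from 5.24 to 5.93, near the median of 5.75 over all probe sets.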
